A study of Homo sapiens with 6 samples.

Results

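The genes of fatty acid synthesis, desaturation and triglyceride storage were followed in HK-2 cells, a line immortalized from human proximal tubule epithelium, with and without oxidized low-density lipoprotein (OX-LDL). A list of 31 genes was matched by symbol to the deposited table of 58825 genes, and all 31 were found and tested, among 19510 genes that averaged 0.1 FPKM or more. Poly(A) RNA was sequenced from 3 Control cultures, labelled as untreated with no time given, and from 3 cultures given OX-LDL at 25 µg/ml over 48 h. All 6 libraries came from this 1 cell line, and the labels name no genetic change. According to the study's methods, cells were starved in low-serum medium before treatment, and no vehicle or batch was named. Nothing in the labels says whether the cultures were grown separately, so p-values measure only the spread between these libraries.

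Cells build fatty acids from cytosolic acetyl-CoA. ATP citrate lyase makes acetyl-CoA from citrate, acetyl-CoA carboxylase turns it into malonyl-CoA, and fatty acid synthase joins these units into palmitate with reducing power from NADPH. Elongases and desaturases then lengthen the chain or add double bonds, acyl-CoA synthetases activate free fatty acids, and acyltransferases, lipins and DGAT enzymes assemble triglyceride, which is stored in droplets coated by perilipins. In the proximal tubule, which mainly burns fatty acids for energy, stored triglyceride is known as a mark of lipid overload.

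Levels are deposited FPKM (fragments per kilobase of transcript, scaled by the authors to library size), and values for libraries are given in the order of replicates 1, 2 and 3. Log2 fold changes compare OX-LDL with Control and, with their errors, come from edgeR's quasi-likelihood test on the deposited counts, with p-values adjusted over all 19510 genes by the Benjamini-Hochberg method. A gene was called upregulated or downregulated at an adjusted p under 0.05. At 3 libraries a group, permuting the labels of a single gene exactly gives a smallest two-sided p of 0.1. Total counts ran from 62561347 to 76797607 per library, and about 4 deposited counts corresponded to 1 read pair (15640337 to 19199402 read pairs).

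Of the 31 genes, 10 were upregulated (32.3%, against 7.91% of all genes tested) and 3 were downregulated (9.68%, against 7.42%). The list was chosen with earlier results of these data known, so these shares, and those by step below, describe the list and do not test it. The upregulated genes were ACLY, FASN, ME1, SCD, ELOVL5, ACSL3, ACSL4, ACSL5, LPIN1 and PLIN3, with fold changes of up to 2.31. The downregulated genes were ELOVL4, ELOVL7 and LPIN2, with fold changes of 0.657 to 0.782. The median log2 fold change was 0.23 over the 31 genes and -0.00 over all genes tested, and 21 of the 31 values were positive. The number of upregulated genes was 5 without Control replicate 2 and 7 to 11 without any other library. The number of downregulated genes was 0 when replicate 1 or 2 of Control or replicate 1 or 3 of OX-LDL was left out, and 2 without either of the others. ACLY, FASN, ELOVL5, ACSL4 and PLIN3 kept an adjusted p under 0.05 whichever library was left out. By step, the median was 0.42 for synthesis, 0.41 for desaturation, 0.01 for elongation, 0.50 for activation, 0.21 for glycerolipid assembly and 0.13 for the droplet genes.

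**Figure D1:**
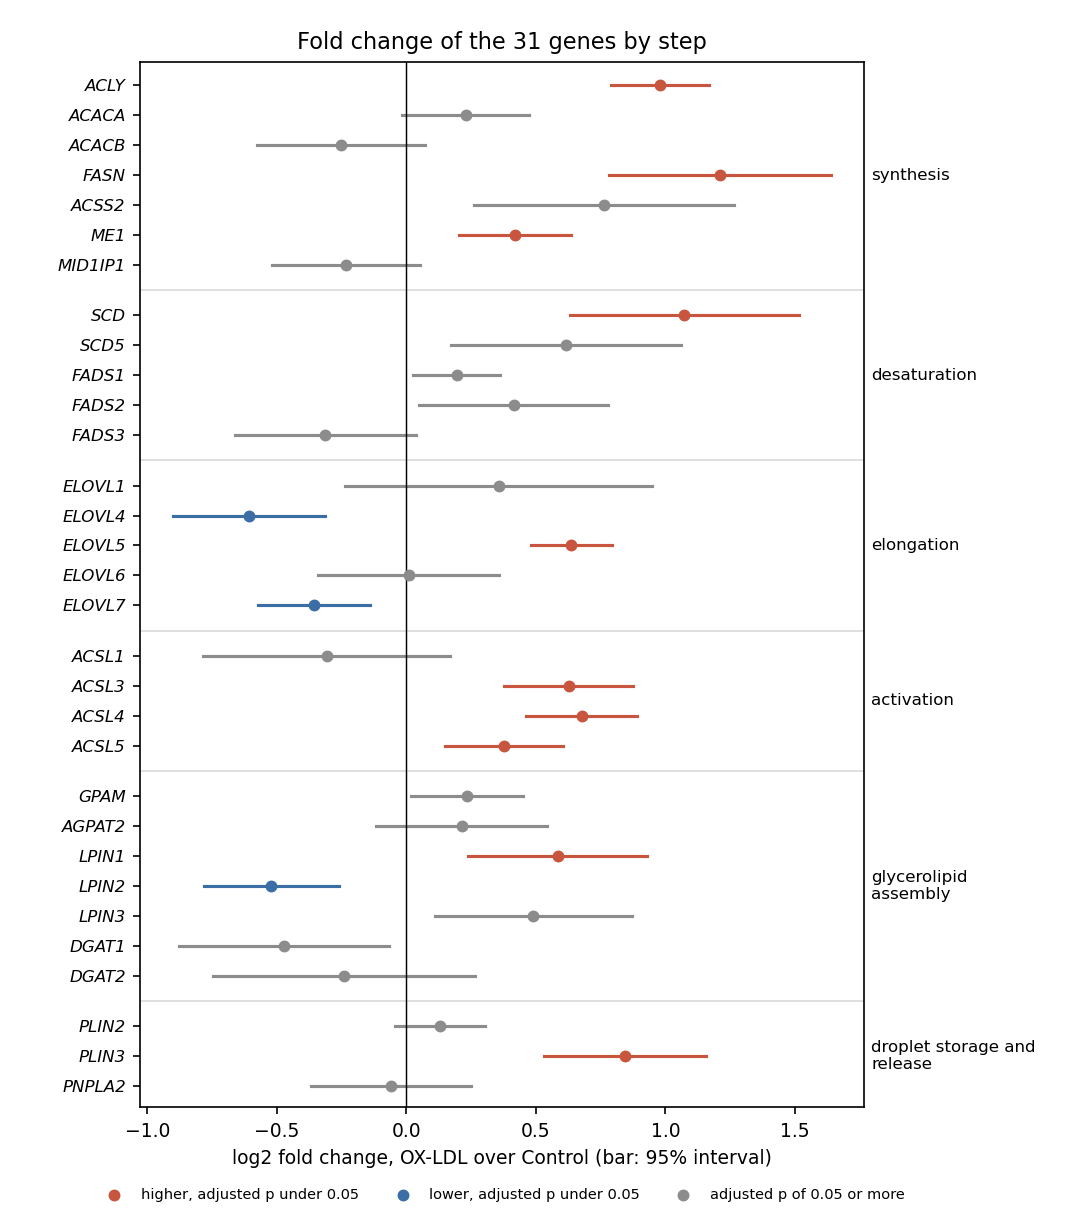
Log2 fold change of OX-LDL over Control for each of the 31 genes, grouped by step, with the 95% confidence interval of the edgeR fit. The intervals of the 10 upregulated and 3 downregulated genes lie clear of 0, as do those of 7 of the 18 uncalled genes. FASN and SCD reach the highest values at 1.21 and 1.07.

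By the rule of a fold change above 2 or below 0.5 with an unadjusted p under 0.05, 2 genes, FASN and SCD, counted as upregulated DEGs (6.45%, against 3.19% of all genes tested) and 0 as downregulated DEGs (against 3.16%). The 3 OX-LDL libraries lay above the 3 Control libraries in 17 genes (54.8%, against 16.8% of all genes tested) and below them in 7 genes (22.6%, against 20.5%). The groups overlapped in ELOVL1, ELOVL6, ACSL1, AGPAT2, DGAT2, PLIN2 and PNPLA2.

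The genes differed widely in level. In Control cells SCD was the most abundant of the 31 at 119 FPKM, followed by ELOVL5 at 61.3 FPKM and ACLY at 32.2 FPKM. Averaged over all 6 libraries, SCD lay above 99.4% of all genes tested. ACSL3, ME1 and PLIN2 followed at 25.5, 25.2 and 25.2 FPKM, which is closer together than their SDs of 2.93, 1.87 and 1.49. DGAT2, FADS2 and ELOVL6 were the lowest at 1.33, 1.16 and 1.07 FPKM, and the libraries of neighbours in this order overlapped.

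**Figure D2:**
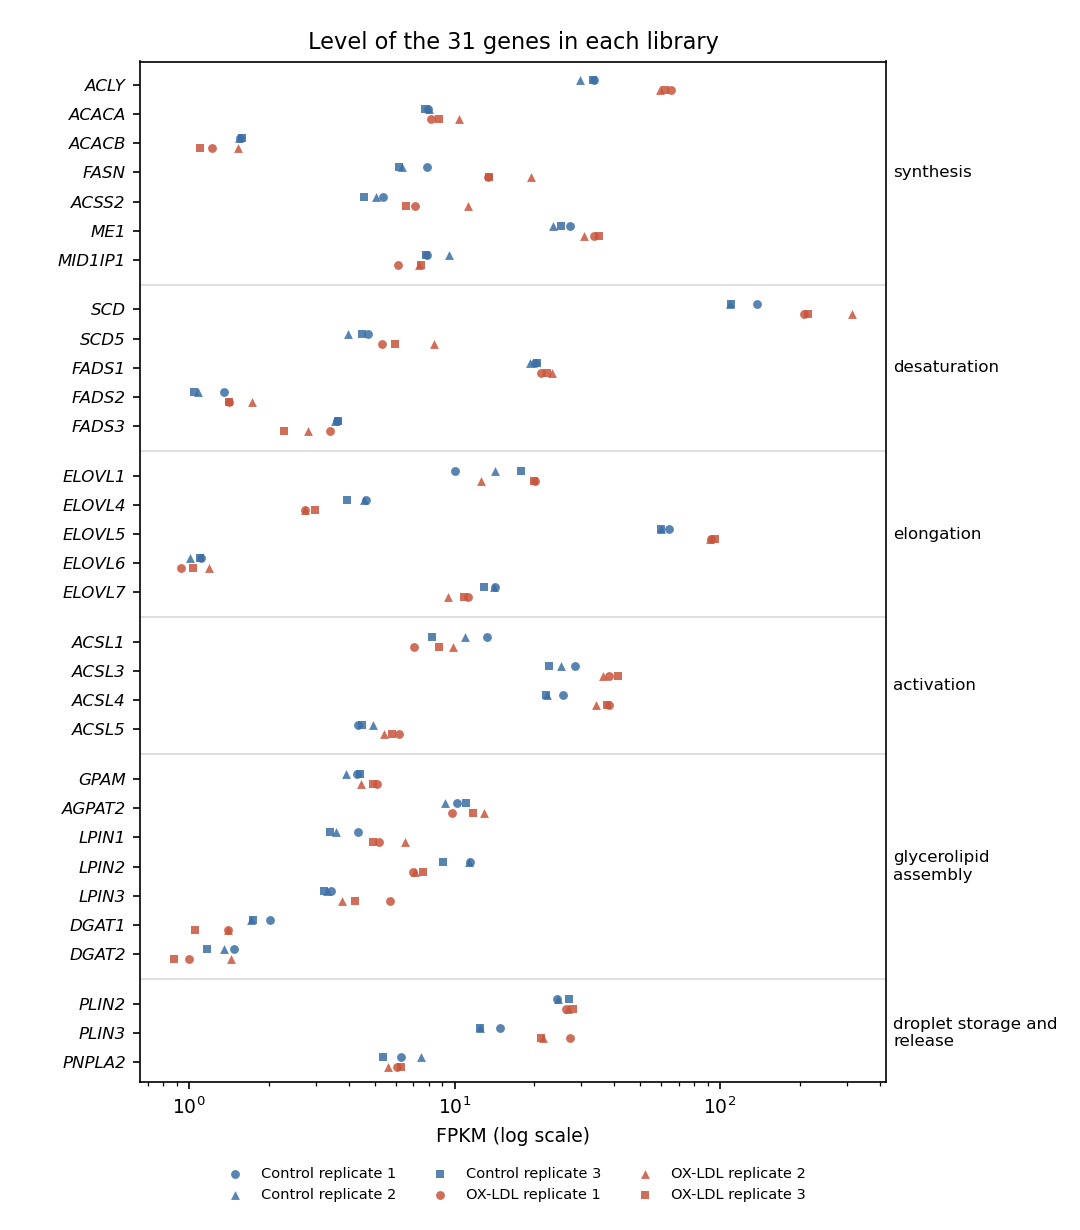
FPKM (log axis) of each of the 31 genes in every library, with Control and OX-LDL libraries in separate colours. SCD stands highest in all 6 libraries, and the groups are separated in ACLY, FASN, ELOVL5 and PLIN3 but overlap in PLIN2 and PNPLA2.

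Sequence just upstream of the start site is shown for 4 called genes, 3 upregulated and 1 downregulated, because the CCAAT motif, the NF-Y box, is present in some of them and not in others. RefSeq windows (GRCh38.p14) matched 27 of the 31 genes by symbol, and 250 bases before the first listed start of each were searched on both strands. To leave out transcribed bases, each printed stretch ends before the first exon of GENCODE 29 that reaches into the window. Capitals mark CCAAT or, on the other strand, ATTGG. The stretches are ACLY at chr17:41919023-41919272 (minus strand), SCD at chr10:100346983-100347123 (plus strand), ME1 at chr6:83431072-83431301 (minus strand) and ELOVL4 at chr6:79947581-79947803 (minus strand). The ACLY stretch lies within the span of the gene but in no exon.
ACLY: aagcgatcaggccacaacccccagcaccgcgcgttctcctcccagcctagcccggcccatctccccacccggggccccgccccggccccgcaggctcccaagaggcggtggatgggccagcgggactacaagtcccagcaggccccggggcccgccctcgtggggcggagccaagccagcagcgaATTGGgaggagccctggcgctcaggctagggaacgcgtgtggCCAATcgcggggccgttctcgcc
SCD: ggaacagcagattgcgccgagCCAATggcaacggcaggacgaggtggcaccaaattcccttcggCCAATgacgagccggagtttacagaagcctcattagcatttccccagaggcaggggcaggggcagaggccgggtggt
ME1: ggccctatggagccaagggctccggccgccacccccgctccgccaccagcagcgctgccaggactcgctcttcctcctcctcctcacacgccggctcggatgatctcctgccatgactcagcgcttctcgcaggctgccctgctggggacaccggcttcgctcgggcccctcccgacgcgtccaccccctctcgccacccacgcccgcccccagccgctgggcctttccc
ELOVL4: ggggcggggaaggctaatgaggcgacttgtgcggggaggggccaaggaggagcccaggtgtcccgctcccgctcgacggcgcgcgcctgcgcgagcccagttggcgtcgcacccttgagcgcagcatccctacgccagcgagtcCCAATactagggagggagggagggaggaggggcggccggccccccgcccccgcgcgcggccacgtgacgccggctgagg

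CCAAT was found in the windows of 11 of the 27 genes, against 33% of 27305 windows in the reference table. It was present in 5 of the 9 upregulated genes with a window (ACLY, SCD, ELOVL5, ACSL3 and PLIN3) and in 1 of the 3 downregulated genes (ELOVL4). In ELOVL5, ACSL3 and PLIN3 every match lay past the start of the first exon that reaches into the window. A further ELOVL4 match, 25 bases before the start on the other strand, also lay past that point and is not in the printed stretch. The printing rule above leaves out all of these matches. The E-box CACGTG was found in ELOVL4, ELOVL5 and PLIN2, against 6.49% of windows. The sterol regulatory element core TCACNCCAC, bound by SREBP factors, was found in MID1IP1 and PNPLA2, against 0.875% of windows, and neither of those genes was called. The matched motifs did not overlap. These matches describe the letters of the windows and no binding was measured.

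In the synthesis of palmitate, 3 of 7 genes were upregulated and 0 were downregulated (42.9% and 0%, against 7.91% and 7.42% of all genes tested). ACLY, the enzyme that makes cytosolic acetyl-CoA (GRCh38 chromosome 17, 41866917 to 41930542), was at 33.6, 29.8 and 33.2 FPKM in the Control libraries and 65.2, 59.4 and 61.8 FPKM in those with OX-LDL. Every OX-LDL library was far above every Control library. The mean rose from 32.2 ± 2.11 to 62.1 ± 2.91 FPKM (SD, n = 3 each), a log2 fold change of 0.98 (SE 0.08, adjusted p = 0.00157 in edgeR). FASN, the fatty acid synthase itself (chromosome 17, 82078338 to 82098294), was at 7.88, 6.32 and 6.16 FPKM in the Control libraries and 13.3, 19.3 and 13.4 FPKM in those with OX-LDL. OX-LDL replicate 2 was the highest, and the groups did not overlap. The log2 fold change was 1.21 (SE 0.18, adjusted p = 0.00878 in edgeR), the largest of the 31.

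ME1, the cytosolic malic enzyme that supplies NADPH, was at 27.2, 23.4 and 25.1 FPKM in the Control libraries and 33.4, 30.9 and 35.0 FPKM in those with OX-LDL. The groups did not overlap, and the log2 fold change was 0.42 (SE 0.09, adjusted p = 0.0263 in edgeR). The ME1 call was lost without replicate 2 or 3 of Control or 1 or 3 of OX-LDL, with an adjusted p of 0.0703 to 0.0901. ACSS2, which makes acetyl-CoA from acetate, was at 5.36, 5.07 and 4.57 FPKM in the Control libraries and 7.07, 11.3 and 6.56 FPKM in those with OX-LDL. Its groups did not overlap, but its log2 fold change of 0.76 (95% confidence interval 0.26 to 1.26) missed the threshold with an adjusted p of 0.0549 in edgeR. Without OX-LDL replicate 2 the ACSS2 value was 0.48 with an adjusted p of 0.0341.

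The acetyl-CoA carboxylases were not called. ACACA, the cytosolic form that feeds synthesis, had a log2 fold change of 0.23 (95% confidence interval -0.02 to 0.47), and ACACB, the mitochondrial form that curbs fatty acid oxidation, one of -0.25 (-0.58 to 0.07). ACACB was at 1.55, 1.54 and 1.58 FPKM in the Control libraries and 1.21, 1.53 and 1.10 FPKM in those with OX-LDL, and without OX-LDL replicate 2 its log2 fold change was -0.40 with an adjusted p of 0.0456. MID1IP1, a protein that promotes the assembly of acetyl-CoA carboxylase into polymers, had a value of -0.23 (-0.52 to 0.05).

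Of the 5 desaturases, SCD alone was called (20%, against 15.3% of all genes tested called in either direction). SCD, the stearoyl-CoA desaturase that makes monounsaturated fatty acids (chromosome 10, 100347233 to 100364826), was at 138, 109 and 110 FPKM in the Control libraries and 207, 314 and 215 FPKM in those with OX-LDL. OX-LDL replicate 2 was again the highest and Control replicate 1 the highest of its group. The mean rose from 119 ± 16.3 to 245 ± 59.4 FPKM (SD, n = 3 each), a log2 fold change of 1.07 (SE 0.19, adjusted p = 0.0134 in edgeR). Without Control replicate 2 the SCD value was 1.00 with an adjusted p of 0.0582.

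SCD5, a second stearoyl-CoA desaturase, was at 4.72, 3.95 and 4.46 FPKM in the Control libraries and 5.33, 8.39 and 5.96 FPKM in those with OX-LDL, with a log2 fold change of 0.62 (95% confidence interval 0.17 to 1.06, adjusted p = 0.0718 in edgeR). FADS1 and FADS2, the delta-5 and delta-6 desaturases of polyunsaturated fatty acids, had values of 0.19 (0.03 to 0.36) and 0.41 (0.05 to 0.78), with an adjusted p of 0.119 and 0.123. Their loci overlap on opposite strands of chromosome 11 (61799625 to 61829318 and 61792980 to 61867354) and the use of strand in counting was not stated, so their levels are uncertain. FADS3 had a value of -0.31 (-0.66 to 0.04). SCD made up 78.9% to 82.3% of the summed desaturase FPKM in Control libraries and 86.9% to 89.6% in OX-LDL libraries.

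The elongases moved in different directions. ELOVL5, which lengthens polyunsaturated chains (chromosome 6, 53267398 to 53349179), was at 64.0, 59.8 and 60.2 FPKM in the Control libraries and 92.5, 91.8 and 95.5 FPKM in those with OX-LDL. Both groups were tight and lay well apart. The log2 fold change was 0.64 (SE 0.07, adjusted p = 0.00273 in edgeR).

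ELOVL4, the elongase of very long chains (chromosome 6, 79914814 to 79947553), was at 4.65, 4.57 and 3.93 FPKM in the Control libraries and 2.74, 2.73 and 2.98 FPKM in those with OX-LDL. Its log2 fold change was -0.61 (SE 0.12, adjusted p = 0.0218 in edgeR), and every OX-LDL library was below every Control library. The ELOVL4 call was lost without replicate 1 or 2 of Control or 1 or 3 of OX-LDL, with an adjusted p of 0.0594 to 0.0809. ELOVL7, which also extends saturated and long chains, was at 14.3, 14.1 and 12.9 FPKM in the Control libraries and 11.2, 9.47 and 10.9 FPKM in those with OX-LDL, a log2 fold change of -0.36 (SE 0.09, adjusted p = 0.0435 in edgeR). The ELOVL7 call was lost whichever of the 6 libraries was left out, with an adjusted p of 0.0633 to 0.127.

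ELOVL6, which lengthens palmitate to stearate, was at 1.07 ± 0.0536 FPKM in Control and 1.05 ± 0.133 FPKM with OX-LDL (SD, n = 3 each), a log2 fold change of 0.01 (95% confidence interval -0.34 to 0.36). ELOVL1, which makes saturated very long chains, had a log2 fold change of 0.36 (-0.24 to 0.95). The Control libraries of ELOVL1 were spread from 10.1 to 17.8 FPKM, and OX-LDL replicate 2 at 12.6 FPKM fell within that range. ELOVL5 made up 62.7% to 68.0% of the summed FPKM of the 5 elongases in Control and 72.6% to 78.0% in OX-LDL.

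Activation held 3 upregulated genes among 4 (75%, against 7.91% of all genes tested). ACSL4, an acyl-CoA synthetase that prefers arachidonate (chromosome X, 109624244 to 109733403), was at 25.6, 22.3 and 22.2 FPKM in the Control libraries and 38.1, 34.0 and 37.6 FPKM in those with OX-LDL, a log2 fold change of 0.68 (SE 0.09, adjusted p = 0.00639 in edgeR). ACSL3, which acts at lipid droplets and the endoplasmic reticulum (chromosome 2, 222860942 to 222942222), was at 28.5, 25.3 and 22.6 FPKM in the Control libraries and 38.2, 36.1 and 41.1 FPKM in those with OX-LDL, a log2 fold change of 0.63 (SE 0.10, adjusted p = 0.0121 in edgeR). Neither gene's groups overlapped. Without Control replicate 2 the ACSL3 value was 0.61 with an adjusted p of 0.0522.

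ACSL5 was at 4.32, 4.95 and 4.49 FPKM in the Control libraries and 6.19, 5.44 and 5.83 FPKM in those with OX-LDL, with a log2 fold change of 0.38 (SE 0.10, adjusted p = 0.0426 in edgeR). That call was lost on leaving out any library except OX-LDL replicate 2, with an adjusted p of 0.0788 to 0.133. ACSL1, the synthetase most often tied to oxidation and triglyceride synthesis in liver and fat, had a value of -0.31 (95% confidence interval -0.78 to 0.17), and its groups overlapped. It made up 14.3% to 18.5% of the summed FPKM of the 4 synthetases in Control and 7.87% to 11.5% in OX-LDL.

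In glycerolipid assembly, 1 of 7 genes was upregulated and 1 was downregulated (14.3% each, against 7.91% and 7.42% of all genes tested). Both were lipins, the phosphatidate phosphatases that make diacylglycerol. LPIN1 (chromosome 2, 11677595 to 11827405) was at 4.33, 3.57 and 3.40 FPKM in the Control libraries and 5.18, 6.49 and 4.92 FPKM in those with OX-LDL, a log2 fold change of 0.58 (SE 0.15, adjusted p = 0.0404 in edgeR). LPIN2 (chromosome 18, 2916994 to 3013315) was at 11.4, 11.3 and 9.06 FPKM in the Control libraries and 6.97, 7.10 and 7.62 FPKM in those with OX-LDL, a log2 fold change of -0.52 (SE 0.11, adjusted p = 0.0242 in edgeR). The groups were separated in both genes, in opposite directions. The LPIN1 call was lost on leaving out any library except Control replicate 1 and the LPIN2 call on leaving out any library except Control replicate 3, with an adjusted p of 0.0678 to 0.132 and 0.054 to 0.0865. LPIN3 was at 3.41, 3.30 and 3.23 FPKM in the Control libraries and 5.69, 3.77 and 4.22 FPKM in those with OX-LDL, with a log2 fold change of 0.49 (95% confidence interval 0.11 to 0.87) and an adjusted p of 0.0876 in edgeR that was 0.0443 without OX-LDL replicate 2. The summed lipin level ran from 15.7 to 19.2 FPKM in Control and from 16.8 to 17.8 FPKM in OX-LDL. LPIN2 held 57.7% to 62.3% of that sum in Control and 39.1% to 45.5% in OX-LDL.

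Among the 31 genes, none of the acyltransferases GPAM, AGPAT2, DGAT1 and DGAT2 was called. GPAM, which adds the first acyl chain to glycerol phosphate, had a log2 fold change of 0.23 (95% confidence interval 0.02 to 0.45), and AGPAT2, which adds the second, one of 0.21 (-0.12 to 0.54). DGAT1 and DGAT2 make triglyceride from diacylglycerol. DGAT1 was at 2.01, 1.71 and 1.75 FPKM in the Control libraries and 1.41, 1.40 and 1.06 FPKM in those with OX-LDL, with a value of -0.47 (-0.88 to -0.07, adjusted p = 0.114 in edgeR). DGAT2 had a value of -0.24 (-0.74 to 0.27), and OX-LDL replicate 2 at 1.44 FPKM lay within the Control range.

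At the droplet, PLIN3 was upregulated. PLIN3, a perilipin that coats nascent droplets (chromosome 19, 4838341 to 4867694), was at 14.8, 12.5 and 12.4 FPKM in the Control libraries and 27.3, 21.5 and 21.1 FPKM in those with OX-LDL, a log2 fold change of 0.84 (SE 0.13, adjusted p = 0.00995 in edgeR). PLIN2, the perilipin widely used as a droplet marker, was at 25.2 ± 1.49 FPKM in Control and 27.0 ± 0.852 FPKM with OX-LDL (SD, n = 3 each), with a value of 0.13 (95% confidence interval -0.04 to 0.30). PNPLA2, the adipose triglyceride lipase, had a value of -0.06 (-0.37 to 0.25). The groups of PLIN2 and PNPLA2 overlapped.

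Ratios of 2 genes within a library, chosen after the values were seen and given with no test, show how partners diverged. FASN to ACACA was 0.857 ± 0.113 in Control and 1.68 ± 0.165 in OX-LDL (SD, n = 3 each). ELOVL5 to ELOVL4 went from 14.1 ± 1.15 to 33.2 ± 0.986, and LPIN1 to LPIN2 from 0.356 ± 0.0356 to 0.767 ± 0.136. PLIN3 to PLIN2 was 0.527 ± 0.0764 in Control and 0.866 ± 0.152 in OX-LDL. In each of these 4 ratios every OX-LDL library lay above every Control library.

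**Figure D3:**
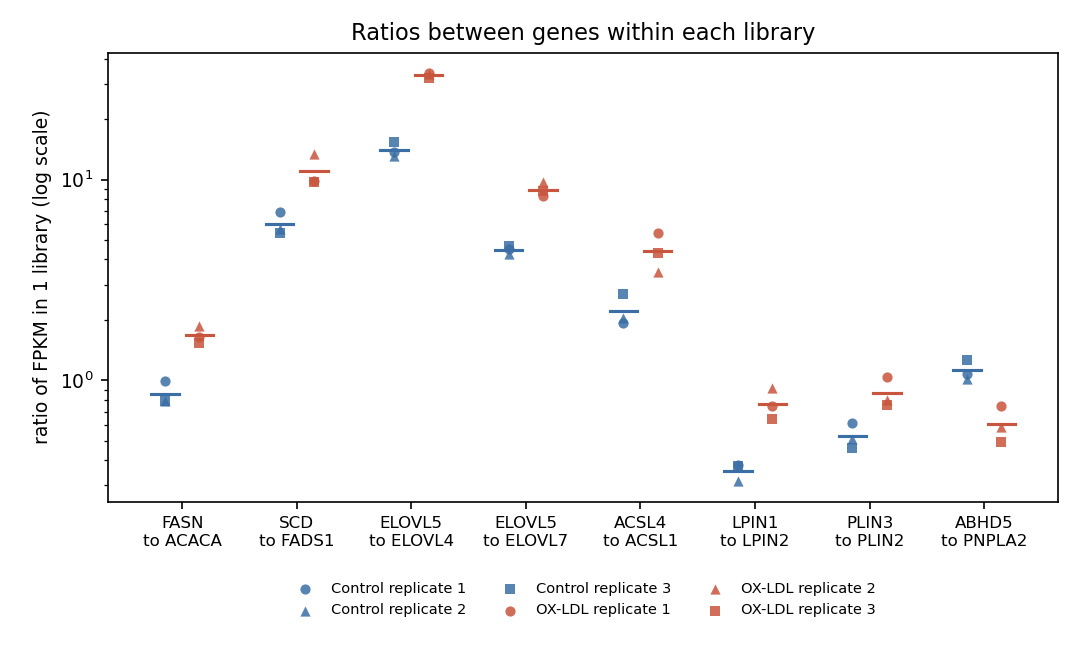
Ratios of FPKM (log axis) within each library for 8 pairs of genes, with points for the 3 Control and 3 OX-LDL libraries and a line at each group mean. In the ratio of LPIN1 to LPIN2 the Control libraries lie near 0.356 and the OX-LDL libraries near 0.767.

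The OX-LDL libraries did not all carry the same levels. OX-LDL replicate 2 was the highest of its group in 13 of 31 genes (41.9%, against 36.3% of all genes tested). Relative to the mean of OX-LDL replicates 1 and 3, its FPKM was 1.65-fold for ACSS2, 1.54 for DGAT2, 1.49 for SCD5, 1.49 for SCD, 1.44 for FASN, 1.32 for ACACB and 1.29 for LPIN1. ACACB and DGAT2 were not called and had negative log2 fold changes. The lowest ratio was 0.628, for ELOVL1, and the ratio was 0.936 for ACLY, 0.977 for ELOVL5 and 0.896 for PLIN3. INSIG1, a sterol sensor that retains SREBP precursors and was named after its values were seen, was at 7.85, 4.85 and 3.74 FPKM in Control, 12.9 FPKM in OX-LDL replicate 1 and 35.7 FPKM in OX-LDL replicate 2, with OX-LDL replicate 3 slightly below replicate 1, a ratio of 2.86 (log2 fold change 1.91, adjusted p = 0.0444 in edgeR). The INSIG1 call was lost at least without replicate 1 or 2 of Control or replicate 1 or 3 of OX-LDL. INSIG2, also named after its values were seen, was at 1.93, 2.18 and 4.01 FPKM in Control and 6.60, 2.68 and 7.56 FPKM in OX-LDL. There OX-LDL replicate 2 was the lowest of its group. INSIG2 was not called (log2 fold change 1.08, adjusted p = 0.148 in edgeR), though it met the rule of a fold change above 2 with an unadjusted p under 0.05. Among the Control libraries, replicate 1 was the highest in 20 of 31 genes (64.5%, against 31.2% of all genes tested).

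**Figure D4:**
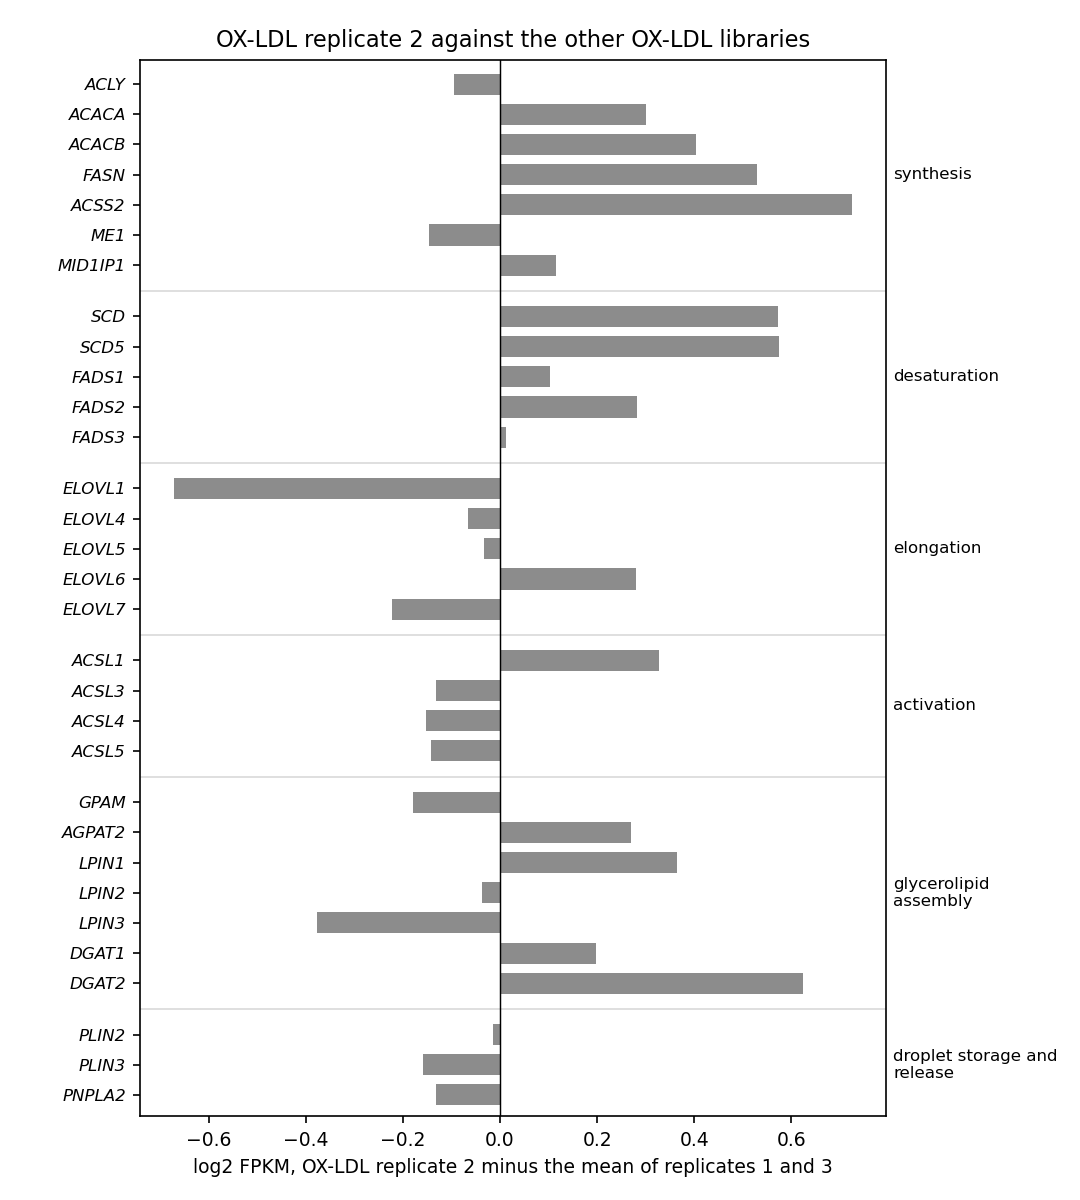
Log2 FPKM in OX-LDL replicate 2 minus the mean of OX-LDL replicates 1 and 3, for each of the 31 genes (bars start at 0). The bars of ACSS2, SCD and FASN reach 0.72, 0.57 and 0.53, and those of ACLY and ELOVL5 lie at -0.10 and -0.03.

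In the authors' KEGG annotation, 7 of the 10 tested genes of fatty acid biosynthesis were among the 31, and 4 of the 7 were upregulated against 0 of the other 3. The PPAR signaling pathway held 9 of the 31 genes, of which 5 were upregulated and 0 downregulated, and 35 other tested genes, of which 5 were upregulated and 3 downregulated. Ferroptosis held 4 of the 31, of which 3 were upregulated and 0 downregulated, and 31 others, of which 2 were upregulated and 6 downregulated. The counts were mixed in fatty acid elongation (1 upregulated and 2 downregulated of 5), biosynthesis of unsaturated fatty acids (2 and 2 of 9) and glycerolipid metabolism (1 and 1 of 8). The other tested genes of these terms had 2 and 0 of 20, 2 and 0 of 16, and 4 and 3 of 38. Further terms are not detailed, among them peroxisome (3 and 0 of 4, others 13 and 3 of 65) and AMPK signaling (2 and 0 of 5, others 18 and 4 of 95). The shares of all genes tested were 7.91% upregulated and 7.42% downregulated. Upregulated genes of the 31 were shared between these terms, so the counts are not separate results.

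A second list of 72 genes covered the rest of fatty acid and triglyceride metabolism, and 55 of them were tested. Of these, 7 were upregulated (12.7%, against 7.91% of all genes tested) and 7 were downregulated (12.7%, against 7.42%), and the median log2 fold change was -0.07. The upregulated genes include FABP3, which reached the minimum level only through its OX-LDL libraries. Leaving out 1 library brought the upregulated genes to 0 (Control replicate 2 or OX-LDL replicate 3), 1 (OX-LDL replicate 1), 2 (Control replicate 1 or 3) or 4 (OX-LDL replicate 2), and the downregulated genes to 3 (Control replicate 2 or OX-LDL replicate 1), 4 (Control replicate 1 or OX-LDL replicate 3), 5 or 9.

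Among the lipases and their regulators, ABHD5 and G0S2 were downregulated, the activator and the inhibitor of PNPLA2. ABHD5 went from 7.08 ± 0.446 to 3.64 ± 0.754 FPKM (SD, n = 3 each), a log2 fold change of -0.93 (SE 0.14, adjusted p = 0.0101 in edgeR), and G0S2 from 8.48 ± 1.12 to 3.25 ± 0.681 FPKM, a value of -1.34 (SE 0.21, adjusted p = 0.0103). PNPLA3, a lipase related to PNPLA2, and LIPA, the lysosomal acid lipase, had values of 0.66 and 0.32 (adjusted p = 0.0284 and 0.0398 in edgeR). The call of PNPLA3 was lost on leaving out any library except OX-LDL replicate 2 (adjusted p 0.0597 to 0.0927), and that of LIPA whichever library was left out (0.0567 to 0.106). PLIN4, a droplet coat protein, fell from 1.21 to 0.626 FPKM (log2 fold change -0.91, adjusted p = 0.0163 in edgeR), with an adjusted p of 0.0632 without OX-LDL replicate 1.

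The acyltransferases GPAT3 and AGPAT4 were downregulated, with log2 fold changes of -0.77 and -0.35 (adjusted p = 0.0216 and 0.0271 in edgeR). The GPAT3 call was lost without replicate 2 of Control or 1 or 3 of OX-LDL (adjusted p 0.0655 to 0.0824), and the AGPAT4 call on leaving out any library except OX-LDL replicate 2 (0.0573 to 0.0997). Of the genes that supply carbon and NADPH, SLC25A1, the mitochondrial citrate carrier, rose from 25.4 to 40.9 FPKM (log2 fold change 0.72, adjusted p = 0.0256) and PGD, an enzyme of the pentose phosphate pathway, from 46.9 to 55.2 FPKM (0.27, adjusted p = 0.0427). The SLC25A1 call was lost without Control replicate 2 or any OX-LDL library (adjusted p 0.06 to 0.0748), and the PGD call whichever library was left out (0.0665 to 0.131).

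Of the regulators, STARD4, a sterol carrier, was upregulated (0.54, adjusted p = 0.0225) and NR1H2, which encodes liver X receptor beta, was downregulated (-0.49, adjusted p = 0.0185 in edgeR). The STARD4 call was lost without replicate 2 or 3 of Control or 3 of OX-LDL (adjusted p 0.0667 to 0.0804), and the NR1H2 call without replicate 1 or 2 of Control or 1 or 3 of OX-LDL (0.0501 to 0.0744). SREBF1, the main activator of lipid synthesis genes, had a log2 fold change of 0.40 (95% confidence interval 0.11 to 0.68) with an adjusted p of 0.0706, and SREBF2 one of -0.12 (-0.42 to 0.19). MLX, a partner of carbohydrate-responsive factors, was also called (-1.07, adjusted p = 0.0431 in edgeR) and was named after its values were seen. The MLX call was lost at least on leaving out any Control library. The fatty acid binding protein FABP3 was under the detection limit of 12 counts in every Control library (5, 7 and 4 counts) and at 28, 25 and 53 counts in OX-LDL, which is at least 2.97-fold higher against 12 counts per library (adjusted p = 0.0182 in edgeR). The FABP3 call was lost on leaving out any library except OX-LDL replicate 2 (0.0540 to 0.0774).

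**Figure D5:**
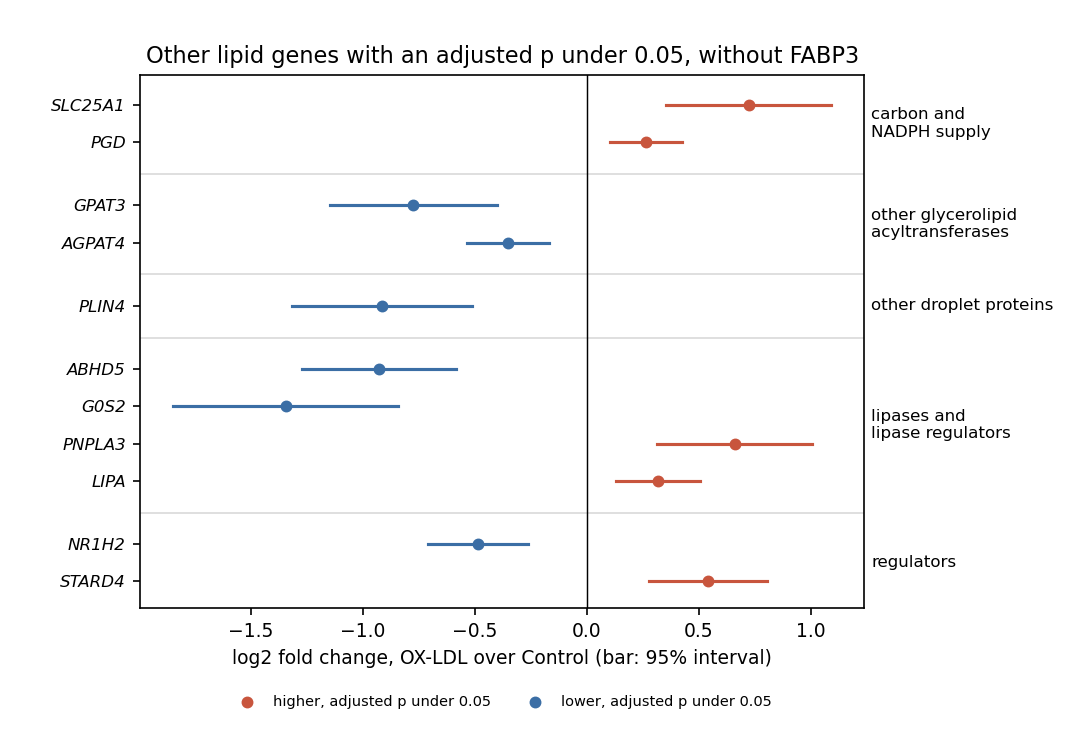
Log2 fold change of OX-LDL over Control with 95% confidence intervals for the 12 genes of the second list with the smallest p, FABP3 left out because its Control libraries were under the detection limit. ABHD5 and G0S2 lie lowest at -0.93 and -1.34, while SLC25A1 and PNPLA3 lie highest at 0.72 and 0.66.

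The cell type was checked with markers. KRT8, KRT18 and EPCAM, keratins and an adhesion molecule of epithelia, were well expressed, but CDH1 (E-cadherin) was at no more than 0.144 FPKM in any library, and PAX8, a transcription factor of the tubule, was present at 16.3 to 58.0 FPKM. Several genes of the mature proximal tubule were absent or near it, with LRP2 at 0 counts in every library. CUBN, ANPEP, AQP1 and SLC34A1 were below a mean of 0.1 FPKM. GGT1, another such gene, was not absent. It is listed in 2 rows, and which row was higher changed between libraries, so its level is uncertain. The higher row was at 18.2, 18.2 and 22.6 FPKM in Control and 15.8, 17.7 and 16.1 FPKM in OX-LDL. PAX8 moved with the groups at 49.2, 58.0 and 32.6 FPKM in Control and 17.8, 24.2 and 16.3 FPKM in OX-LDL (log2 fold change -1.23, adjusted p = 0.0182 in edgeR), and KRT19 rose by a log2 fold change of 1.94 (adjusted p = 0.00207). Of 8 markers of other kidney and blood cell types, CD68 alone reached the minimum level, and the 8 summed to 2.85 to 7.62 FPKM in Control and 8.95 to 13.6 FPKM in OX-LDL. CD68 was at 2.77, 5.31 and 7.56 FPKM in Control and 8.91 to 13.6 FPKM in OX-LDL (adjusted p = 0.0858 in edgeR), and UMOD was at 0. The part of these markers in the lipid genes' values was not tested, and in bulk RNA fewer cells of a type and less RNA per cell cannot be told apart.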

How the data were processed

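Gene expression was measured by RNA-seq in HK-2 cells, with 3 Control and 3 OX-LDL libraries grouped by GEO's labels. The authors deposited 1 table with estimated counts (whole numbers, not scaled, used without rounding) and FPKM values (scaled by the authors per kilobase and for library size) for 58825 genes on GRCh38. The submitters' processing notes name cutadapt 1.9, HISAT2 2.0.4, StringTie 1.3.4d, edgeR and DESeq2. Whether counting used strand was not stated, so levels of overlapping genes are uncertain on both strands. Of the 31 genes, 7 overlap no other gene, 14 overlap a gene on the same strand and 10 overlap genes on the other strand only. ACSL5, which was called, overlaps ZDHHC6 on the other strand, and ACSS2 overlaps GGT7.

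Counts were tested with edgeR 4.0.16 (R 4.3.3) after TMM normalization, with the group as the only term, over genes averaging 0.1 FPKM or more. Standard errors were taken as the log2 fold change over the root of the F statistic. Genes at 4, 8 and 12 counts were 3.26, 2.95 and 2.13 times as frequent as their neighbours, read as 4 counts per read pair, and 12 counts were taken as the detection limit, which covers counting error only. Between libraries of a group the chi-square per gene was 14.9 to 25.7, so none was deposited more than once.

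The 31 genes and all lists were chosen with earlier results of these data known. All 31 are named, with the FPKM of every library for those called, and of the second list the 12 with the smallest p among those called. Alternatives were DESeq2 1.42.0, limma 3.58.1 on log2(FPKM + 0.1) and log2(FPKM + 1), other scalings and minimum levels, a replicate block, leaving out each library and, chosen after seeing the data, counts divided by 4. The fits were tested on simulated data. Some marker genes are not reported here.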

Additional observations from a re-analysis of the deposited data

How the results depend on the processing

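The 10 upregulated and 3 downregulated genes kept their direction under every alternative, and DESeq2, edgeR with RLE factors and edgeR on counts divided by 4 kept all 13 calls. Leaving out 1 library gave 5 to 11 upregulated and 0 to 2 downregulated genes of the 31, 0 to 4 and 3 to 9 of the second list, and 1161 to 2943 of all genes called, against 10, 3, 7, 7 and 2991. For the 7 upregulated genes of the second list, DESeq2 gave 11, and limma with 0.1 or 1 added to FPKM and edgeR with no minimum level each gave 4. The replicate block gave 1636 of all genes, 8 and 0 of the 31, and 1 and 6 of the second list. Deviations of libraries with the same number correlated at -0.041, -0.003 and 0.036, so the numbers did not pair the libraries, and not every library correlated best with its own number. The direction of ELOVL6 (0.01) reversed to -0.020 with total counts only, -0.026 and -0.013 with limma at 0.1 and 1, -0.0020 with no minimum level, and ran from -0.090 to 0.10 on leaving out a library. PNPLA2 (-0.06) ran from -0.17 to 0.056. The cause of these changes was not tested. The 95% confidence interval of an uncalled gene was as wide as -0.24 to 0.95 (ELOVL1) with 3 libraries a group.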
